A study of Mus musculus with 6 samples.

Results

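Genes that mark monocytes and macrophages were followed in bone-marrow cells taken from mice with a Gr-1 antibody, 3 arrays from miR-223 null mice and 3 from wild-type mice. The members were chosen by probe set number: 11 probe sets, paired in advance with 8 genes, out of 45101 probe sets on the array. Each row of the array is a probe set, several short probes for a transcript. Csf1r was measured by 3 probe sets, Ccr2 by 2, and Cx3cr1, Ly6c, Adgre1, Fcgr1, Cd68 and Mrc1 by 1 each. The pairing of number and gene came with the choice of the members, since the deposited table holds no gene names. The 8 names were all found in the mouse gene table of RefSeq, where Adgre1 is also listed as Emr1 and the name Ly6c leads to Ly6c1.

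The null group lacked miR-223 and the wild-type group was the control, and per the labels' protocols both were isolated directly from the animal on magnetic columns. The sources used here do not give the strain, age, null allele or any pooling of animals. Whether the 3 arrays of a group came from separate mice is not stated either, so each p-value reflects only how much these samples spread, which may be technical. Each value is a deposited log2 expression value, so that a difference of 1 is a 2-fold change.

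Monocytes and neutrophils arise in the bone marrow from shared progenitors, and the Gr-1 antibody binds Ly6G, which marks neutrophils, as well as Ly6C, which many monocytes carry. A Gr-1 selection can therefore hold monocytes beside neutrophils. Csf1r is the receptor for colony-stimulating factor 1, on which monocytes and macrophages depend. Ccr2 lets Ly6C-high monocytes leave the marrow, Cx3cr1 is more abundant on patrolling monocytes, and Adgre1, Cd68, Fcgr1 and Mrc1 are used as markers of macrophages. Neutrophils can carry some of these transcripts too, so the level of a single marker does not count cells. In such bulk RNA, more cells of a type and more RNA per cell cannot be told apart.

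The RNA that separates the groups is miR-223, a microRNA of myeloid cells that represses transcripts to which its seed pairs. Its 3p arm is shown because it is what null cells lack by their label (its loss was not checked here), with the seed (bases 2 to 8) in capitals. The sequence is that of RefSeq, on the plus strand of chrX:96242884-96242905 in build GRCm38.p6.
mmu-miR-223-3p: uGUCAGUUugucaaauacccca

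Not all of the markers were called. Adgre1 was 2.24-fold higher in null cells and Csf1r about 1.3-fold higher. The probe sets of Ccr2, Cx3cr1, Ly6c, Fcgr1, Cd68 and Mrc1 did not pass the test. A missing call does not show a smaller change. The confidence intervals of both Ccr2 probe sets, Fcgr1 and Mrc1 include 1.3-fold, with upper ends of 4.5, 2.44, 1.5 and 1.75-fold. Those of Cx3cr1, Ly6c and Cd68 end lower, at 1.25, 1.13 and 1.26-fold. They still overlap the interval of Csf1r 1423593_A_AT (1.1 to 1.45-fold). At a limma adjusted p of 0.05, 2 of the 11 probe sets (18.2%) were higher in null cells, those of Adgre1 and 1 of Csf1r, and 0 were lower. At an unadjusted p under 0.05, which 18.7% of all tested probe sets reached, the other 2 Csf1r probe sets were higher too. Over all 22519 probe sets tested, 2.78% were called higher, 1.06% lower and 3.84% in either direction. Among the 5541 tested probe sets with a mean of at least 9, where both called probe sets lie, 4.04% were called higher. Probe sets of a gene are not separate evidence. The 2 calls fall in 2 of 8 genes, and Csf1r counts there by only 1 of its probe sets. Where every probe set of a gene had to pass, 1 of 8 genes was called. A share over all genes was not computed. All 11 probe sets passed the filter on low values, a mean over the 6 arrays of at least 4.83.

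**Figure D1:**
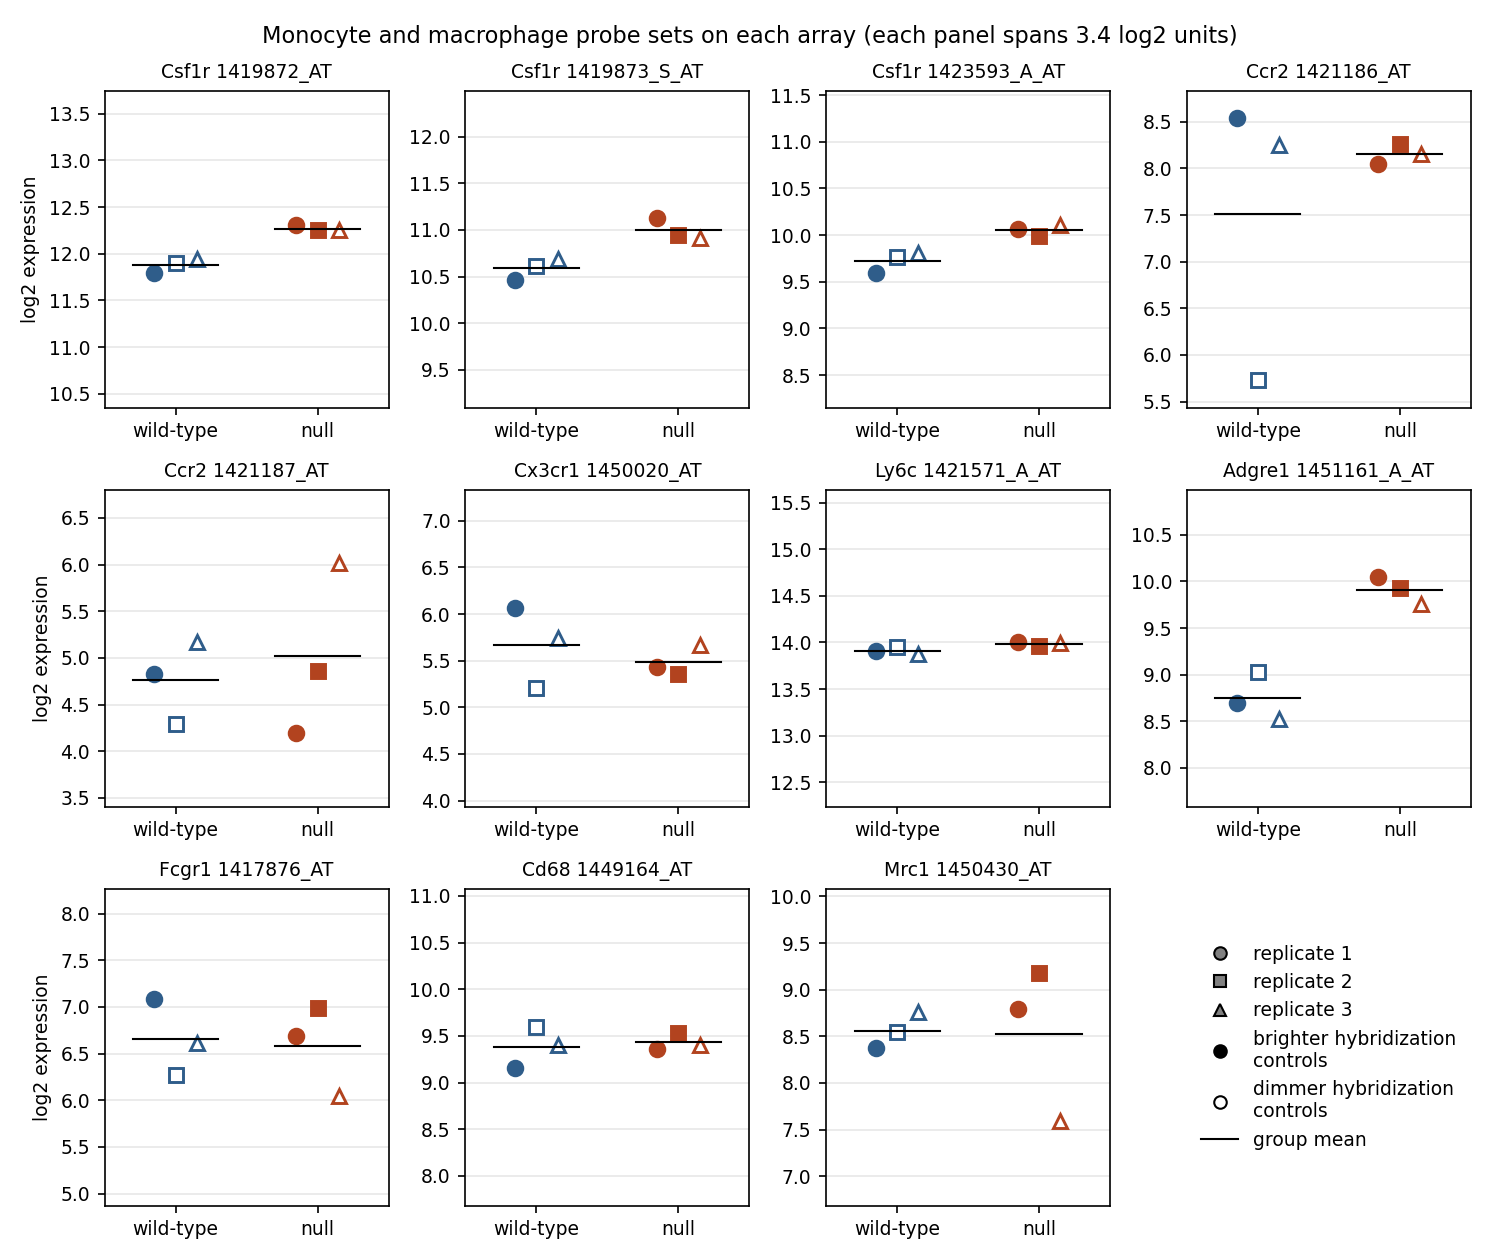
Log2 expression of the 11 probe sets on each array, with wild-type arrays in blue and null arrays in red. Filled symbols are the arrays with brighter hybridization controls, open symbols those with dimmer ones, lines are group means (n = 3), and every panel spans the same number of log2 units. The null arrays of Adgre1 lie between 9.76 and 10.05, above all wild-type arrays, and the wild-type array at 5.73 for Ccr2 stands away from the other 5.

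Csf1r, the growth factor receptor, was higher on every null array than on any wild-type array with all 3 of its probe sets. Probe set 1419872_AT read 12.31, 12.25 and 12.25 on null replicates 1 to 3 and 11.79, 11.90 and 11.94 on the wild-type replicates. The groups were separated by a gap of 0.30, larger than the range within either group. Its null mean was 12.27 ± 0.0339 and its wild-type mean 11.88 ± 0.0772 (SD, n = 3 each). The log2 difference was 0.39 (standard error 0.0613), which is 1.31-fold (95% confidence interval 1.19 to 1.45, limma adjusted p = 0.0206).

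Probe set 1419873_S_AT of Csf1r, whose suffix marks probes that can match more than 1 transcript, read 11.13, 10.95 and 10.91 on the null arrays and 10.46, 10.61 and 10.69 on the wild-type arrays. Again no null value reached down to the wild-type values. The log2 difference of 0.41 (standard error 0.0897, 1.33-fold) just missed the threshold (limma adjusted p = 0.0515). Probe set 1423593_A_AT read 10.06, 9.99 and 10.11 on the null arrays against 9.59, 9.76 and 9.81, and its difference of 0.33 (standard error 0.0861, 1.26-fold) missed it as well (limma adjusted p = 0.0829). Wild-type replicate 1 was the lowest array for all 3. Averaged over its 3 probe sets, Csf1r was at 11.11 ± 0.0504 on the null arrays and 10.73 ± 0.104 on the wild-type arrays (SD, n = 3 per group), 0.38 apart or 1.30-fold.

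The Csf1r call was a narrow one. Without null replicate 1, 2 or 3 the limma adjusted p of 1419872_AT was 0.11, 0.0952 and 0.0537, and without wild-type replicate 2 it was 0.0507, while the difference stayed between 0.35 and 0.42 over the 6 fits that leave out 1 array.

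Among the chemokine receptors, Ccr2 and Cx3cr1 gave no change that passed the test, and their arrays spread widely. Probe set 1421186_AT of Ccr2, the receptor for Ccl2, read 8.05, 8.26 and 8.15 on the null arrays and 8.54, 5.73 and 8.25 on the wild-type arrays. Wild-type replicate 2 alone was low. Of the other 2 wild-type arrays, replicate 1 lay above every null array, and replicate 3 lay within 0.01 of the highest. The difference of 0.64 had a 95% confidence interval from −0.88 to 2.17 (limma adjusted p = 0.692), and it turned to −0.24 without wild-type replicate 2 (limma adjusted p = 0.438). The direction for this probe set thus rests on that array.

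The second Ccr2 probe set, 1421187_AT, lay just above the filter with a mean of 4.89. It read 4.19, 4.86 and 6.02 on the null arrays and 4.83, 4.29 and 5.17 on the wild-type arrays. The groups overlapped (difference 0.26, 95% confidence interval −0.77 to 1.29), and wild-type replicate 2 was again the lowest wild-type array. Without null replicate 3, which was the highest, the difference was −0.24.

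Cx3cr1 (1450020_AT), the receptor for fractalkine, read 5.43, 5.36 and 5.67 on the null arrays and 6.06, 5.21 and 5.74 on the wild-type arrays. The difference was −0.19 with a standard error of 0.217 (95% confidence interval −0.69 to 0.32, limma adjusted p = 0.736), which spans 0.62 to 1.25 times the wild-type level. As with Ccr2 1421186_AT, wild-type replicate 2 was the lowest of the 6 arrays. The wild-type arrays covered a range of 0.85 for this probe set, more than the 0.31 of the null arrays.

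The surface antigens parted ways. Ly6c (1421571_A_AT), a small membrane-anchored protein that the Gr-1 antibody can bind, read 14.00, 13.96 and 13.99 on the null arrays and 13.91, 13.95 and 13.88 on the wild-type arrays. The null values lay above the wild-type values by 0.01 at the closest, and the difference of 0.07 (standard error 0.0440, 1.05-fold) did not pass the test (limma adjusted p = 0.455, 95% confidence interval −0.03 to 0.17). Its values lie in the upper part of the measured range, whose highest value is 14.98. Ly6c1 and Ly6c2 are near-identical neighbours, and which of them this probe set measures was not tested.

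Adgre1 (1451161_A_AT), an adhesion receptor used as a surface marker of macrophages, showed the largest of these differences. It read 10.05, 9.93 and 9.76 on the null arrays and 8.70, 9.03 and 8.52 on the wild-type arrays. The lowest null array exceeded the highest wild-type array by 0.73, and the ranges within the groups were 0.29 and 0.51. The null mean was 9.91 ± 0.145 and the wild-type mean 8.75 ± 0.258 (SD, n = 3 per group). The log2 difference was 1.16 (standard error 0.143), which is 2.24-fold (95% confidence interval 1.78 to 2.82, limma adjusted p = 0.00955). By size it was rank 92 of 22519 when all tested probe sets were ordered from the largest rise to the largest fall.

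The size of the Adgre1 difference held between 1.05 and 1.30 when any 1 array was left out. Its call ended without null replicate 1 (limma adjusted p = 0.0622) and without null replicate 2 (limma adjusted p = 0.0574).

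**Figure D2:**
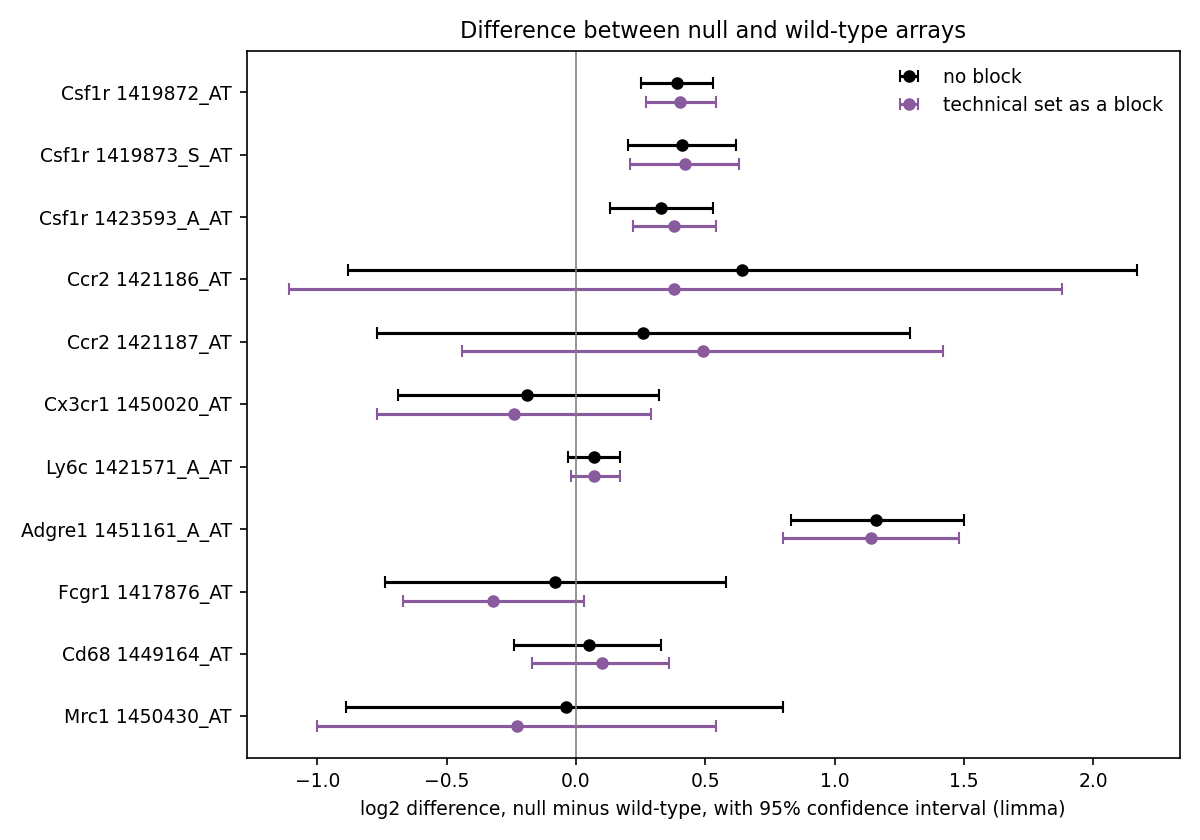
Log2 difference (null minus wild-type) of the 11 probe sets with 95% confidence intervals from limma, without a block (black) and with the technical set of arrays as a block (purple), n = 3 arrays per group. The intervals of Adgre1 and of the 3 Csf1r probe sets lie above 0 in both fits, and those of the other 7 probe sets include 0.

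The phagocytic and lysosomal genes showed no change past the test. Fcgr1 (1417876_AT), the high-affinity receptor for IgG, read 6.69, 6.99 and 6.05 on the null arrays and 7.09, 6.27 and 6.61 on the wild-type arrays (difference −0.08, 95% confidence interval −0.74 to 0.58, limma adjusted p = 0.934). Cd68 (1449164_AT), a glycoprotein of late endosomes and lysosomes, read 9.36, 9.53 and 9.40 on the null arrays and 9.16, 9.60 and 9.40 on the wild-type arrays. Its difference of 0.05 had the narrow interval of −0.24 to 0.33 (limma adjusted p = 0.903). That interval leaves out a rise of more than 1.26-fold and so a rise of the size seen for Adgre1. The limit of 1.26-fold lies within the interval of every Csf1r probe set, so a rise like that of Csf1r is not clearly left out.

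Mrc1 (1450430_AT), the macrophage mannose receptor, read 8.79, 9.18 and 7.59 on the null arrays and 8.38, 8.55 and 8.76 on the wild-type arrays. Null replicate 3 was the lowest of all 6 arrays and the other 2 null arrays were the highest. The difference was −0.04 (95% confidence interval −0.89 to 0.80, limma adjusted p = 0.976) and became 0.42 without null replicate 3 (limma adjusted p = 0.253). Null replicate 3 was also the lowest array for Fcgr1 and the highest for Ccr2 1421187_AT.

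In all, 5 of the 11 probe sets (45.5%) had every null value above every wild-type value (Csf1r with 3, Ly6c and Adgre1) and 0 had them below. Such separation was seen upward in 12.8% and downward in 11.8% of the probe sets tested. The median difference of the 11 probe sets was 0.26, against −0.008 over all tested probe sets. With the probe sets of a gene averaged first, the median of the 8 genes was 0.059, with 5 genes higher and 3 lower, so the first median leans on the 3 probe sets of Csf1r.

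**Figure D3:**
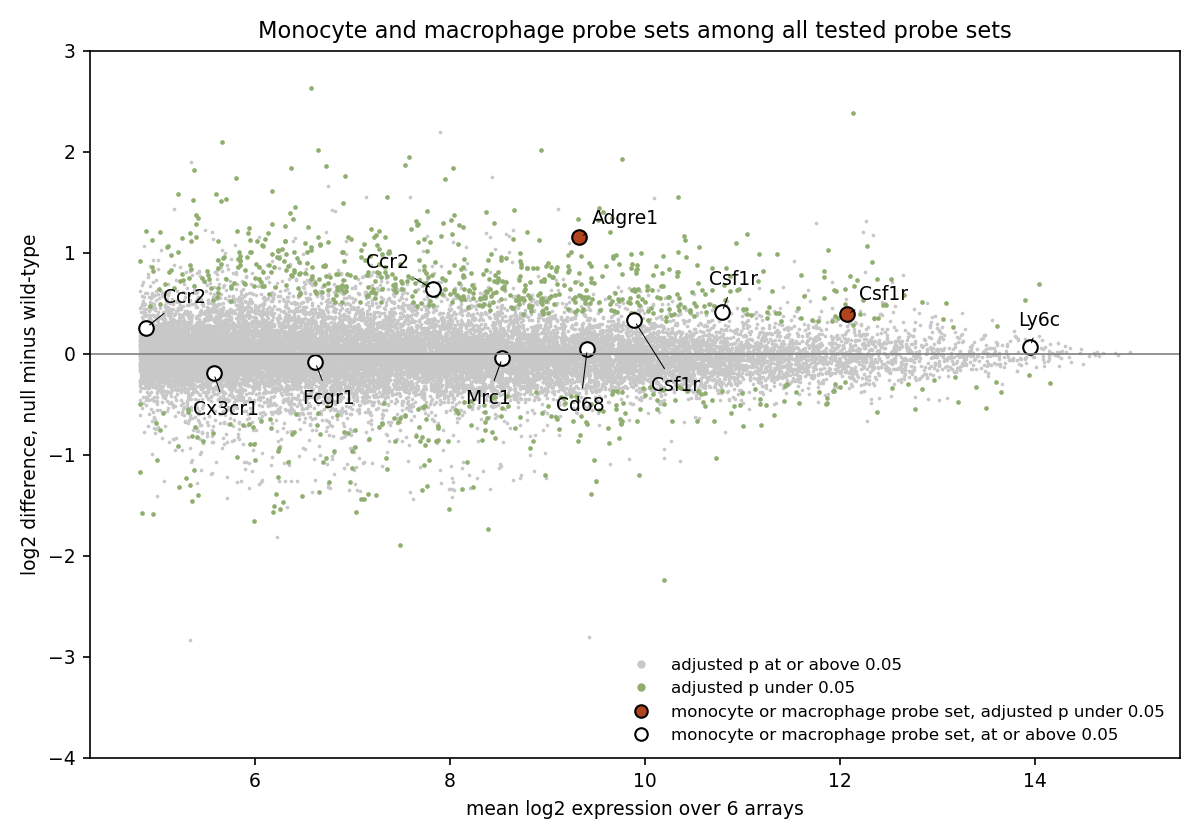
Log2 difference (null minus wild-type) against mean log2 expression over 6 arrays for the 22519 tested probe sets. Green points passed a limma adjusted p of 0.05, and large circles are the 11 monocyte and macrophage probe sets, filled where they passed. Adgre1 stands at 1.16 and the called Csf1r probe set at 0.39.

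Summed on the linear scale, the 11 probe sets came to 26371 to 27340 units on the null arrays and 22993 to 23942 on the wild-type arrays, without overlap. Without Ly6c, which holds most of that sum, it was 10093 to 10961 against 7650 to 8452. Without Ly6c and Csf1r it was 2205 to 2794 against 1861 to 1969. With Adgre1 left out as well, the remaining 6 probe sets came to 1335 to 1822 on the null arrays and 1337 to 1601 on the wild-type arrays, which overlap. Of these 4 sums, the first 3 were separated and the last was not. The probe sets left out were those already seen to separate, and each of the remaining 6 overlapped. The last sum is therefore no separate evidence. Csf1r enters with all 3 of its probe sets, and bright probe sets weigh most. The sums are nested, so the larger ones hold Csf1r as well as Adgre1, and none leaves out Adgre1 alone. All were chosen after the values were seen.

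Whether the genes changed by unequal amounts was read within each array, by subtracting the Csf1r mean from each of the other 7 genes. Adgre1 minus Csf1r was −1.11, −1.14 and −1.32 on the null arrays and −1.91, −1.73 and −2.29 on the wild-type arrays, so Adgre1 gained 0.79 on Csf1r, with no overlap (two-sided exact permutation p = 0.1, the smallest that 3 arrays against 3 allow). Ly6c lost 0.31 and Cd68 lost 0.33 against Csf1r, each also without overlap (exact permutation p = 0.1). Their own differences were 0.07 and 0.05, so these losses largely restate the rise of Csf1r by 0.38. Over the 7 comparisons the Benjamini-Hochberg adjusted p of Adgre1, Ly6c and Cd68 was 0.233. The other 4 genes overlapped, with exact permutation p from 0.2 to 0.9. None can reach 0.05 in this design, so the test cannot decide whether the genes changed by unequal amounts. The subtraction was also chosen after the values were seen.

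The arrays also part into 2 technical sets by their hybridization controls, bacterial and phage sequences that are added to the labelled RNA. These 18 probe sets averaged 10.94 to 10.98 on null replicates 1 and 2 and wild-type replicate 1, and 10.72 to 10.81 on the other 3 arrays. Fcgr1 was split by these sets, while its 2 groups overlapped: it lay at 6.69 to 7.09 in the brighter set and at 6.05 to 6.61 in the dimmer set. Within each set its null values lay below its wild-type values. It was the only 1 of the 11 probe sets (9.09%) whose values did not overlap between the sets, a smaller share than the 17.6% of all tested probe sets. With the set as a block its difference was −0.32, with a 95% confidence interval from −0.67 to 0.03 (limma adjusted p = 0.242).

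For Csf1r and Adgre1 the difference was present in each technical set. Adgre1 was higher in null cells by 1.29 in the brighter set and by 0.99 in the dimmer set. The 3 Csf1r probe sets were higher by 0.49, 0.58 and 0.44 in the brighter set and by 0.32, 0.26 and 0.32 in the dimmer set, in the order in which they were described. Ly6c was higher by 0.07 and 0.08, and Fcgr1 was lower in both sets, at −0.25 and −0.39. Mrc1 changed sign, at 0.60 and −1.06, as did Cx3cr1 (−0.67 and 0.19), Cd68 (0.29 and −0.10) and the Ccr2 probe sets (−0.39 and 1.16 for 1421186_AT, −0.31 and 1.29 for 1421187_AT). Each set has 1 lone array in 1 of the groups, so these values have no test.

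**Figure D4:**
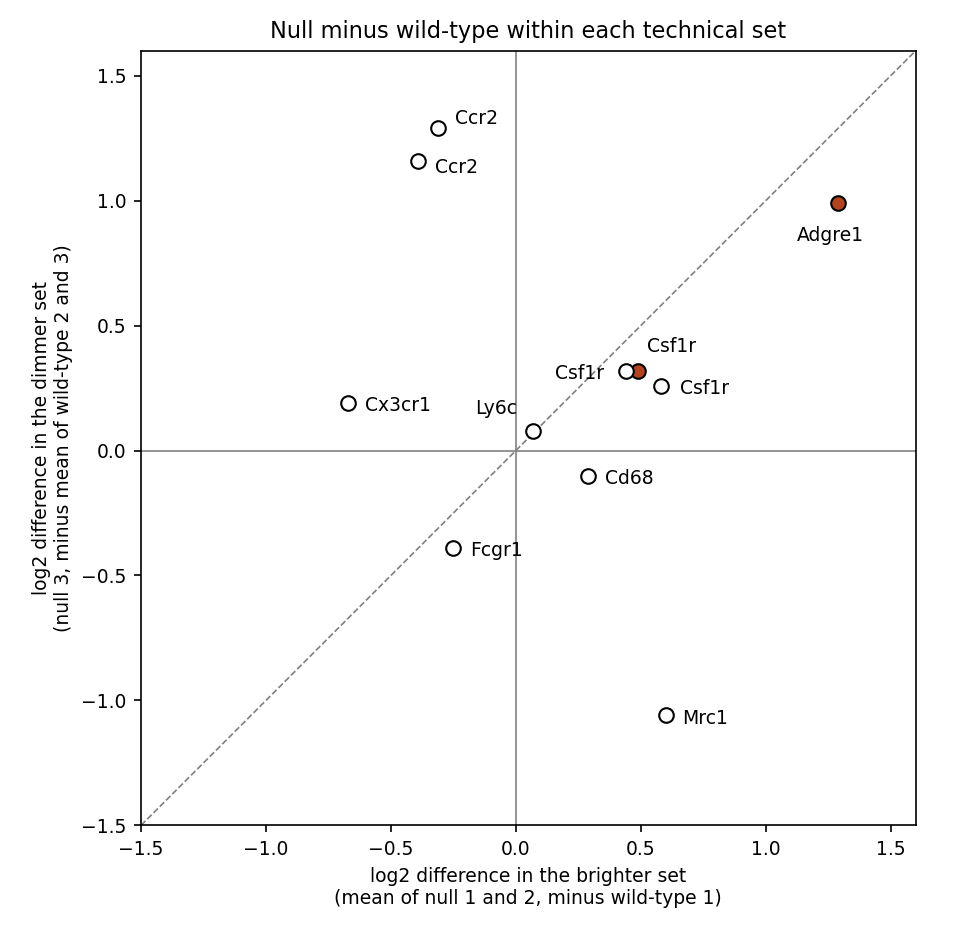
Log2 difference (null minus wild-type) of the 11 probe sets in the dimmer technical set against that in the brighter set, with filled circles for the probe sets called without a block and a dashed line where both are equal. Adgre1 (1.29 and 0.99) and Csf1r lie above 0 on both axes, while Ccr2, Cx3cr1, Cd68 and Mrc1 change sign between the sets.

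When the technical set entered the fit as a block, all 3 Csf1r probe sets passed beside Adgre1, and the other 7 probe sets did not. Higher in null cells were then 4 of 11 probe sets (36.4%, limma adjusted p of 0.05), against 5.57% of all tested probe sets. Lower were 0 of 11, against 5.38%, and 11% of all tested probe sets were called in either direction. Of the 4 called, 3 measure Csf1r and are not separate evidence, which raises the share of 36.4%. The differences were 0.40, 0.42 and 0.38 for Csf1r (limma adjusted p = 0.00786, 0.0276 and 0.0165) and 1.14 for Adgre1 (limma adjusted p = 0.00577). Without the filter and without the block, 2 of 11 were called, against 1.16% of 45037 probe sets called higher.

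Few probe sets followed the Csf1r pattern closely over the 6 arrays. Of 22508 other tested probe sets, 300 (1.33%) had a Pearson correlation of at least 0.95 with the Csf1r mean, and the 5 most alike had correlations from 0.994 to 0.998. The closest, 1433737_AT, was 0.40 higher in null cells (limma adjusted p = 0.0447), and the next, 1433686_AT, was 0.19 higher (limma adjusted p = 0.293). Neither is paired with a gene in the sources used here. Adgre1 correlated with Csf1r at 0.912. The 6 points form 2 groups that differ in both genes, so the correlation is a description only.

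Other markers of monocytes and macrophages, the ligands of these receptors, and markers of neutrophils and of lymphoid, red and other myeloid cells had been listed by symbol, but no table used here pairs their probe sets with genes, so they were not analysed here. The label of the cells as neutrophils was for that reason not checked against neutrophil genes. The part that a different share of monocytes or macrophages between the preparations has in the Adgre1 and Csf1r values was not tested.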

How the data were processed

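The table held log2 expression values that the authors deposited, 1 column per array. Per the submitters' processing notes the software was GCOS. For its version, background correction, normalization and summary method the entry is: not given in the sources used here. That values are log2 was inferred from their span (2.12 to 14.98). Sorted columns differed by at most 0.0890, so no further scaling was applied. Scanner intensities and detection calls were not used here.

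Of 45101 probe sets, 64 controls were left out, and 22519 with a mean at or above the median (4.83) were fitted together in limma (version 3.58.1, R version 4.3.3; lmFit and trended eBayes, no covariate, two-sided tests, Benjamini-Hochberg over the probe sets fitted). The fit was tested on simulated data. Precision is limited by having 3 arrays per group (median standard error 0.128).

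Members, lists and alternatives were chosen with earlier results of these data known. All members are named. The planned marker lists could not be matched to probe sets. Technical sets were split at the largest gap between arrays in the mean hybridization control (0.131, next 0.0501). The subtraction of Csf1r and the sums were added after seeing the values. Figures were drawn with matplotlib 3.10.9.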

Additional observations from a re-analysis of the deposited data

How the results depend on the processing

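The 6 fits that left out 1 array called 0 to 2 of the 11 probe sets and 85 to 592 of all tested probe sets, with the median difference of the 11 between 0.091 (without wild-type replicate 2) and 0.379. Averaging null replicates 1 and 2 left 0 calls among the 11 and 119 in all. Fewer arrays widen the error. Then Adgre1 had a difference of 1.13 (limma adjusted p = 0.0587). With the technical set as a block 4 of the 11 and 2466 in all were called, and with that block and no filter 4 and 2098. Without the intensity trend 1 of the 11 was called. The sample titles do not say whether arrays with the same replicate number are paired. Their deviations from the group means correlated at 0.211, −0.124 and 0.371, which cannot settle it. The fit with the replicate number as a block called 2 of the 11 and 857 in all. The other alternatives (no filter, a stricter filter, an offset of 16, median centring) kept the count within 1.5 times. Adgre1 was higher in null cells in all 15 alternative fits, at 1.05 to 1.30, and past the threshold in 12; Csf1r 1419872_AT was higher in all 15, at 0.35 to 0.42, and past it in 9. Leaving out 1 array turned the sign of Ccr2 1421186_AT (−0.24 to 1.16), Ccr2 1421187_AT (−0.24 to 0.68), Cx3cr1 (−0.42 to 0.01), Cd68 (−0.07 to 0.15), Fcgr1 (−0.29 to 0.18) and Mrc1 (−0.37 to 0.42), none of which was called in any fit. The cause was not tested.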
